A study of Homo sapiens with 14 samples.

Results

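The 32 genes described here encode proteins that build peroxisomes and proteins that oxidise or make lipids inside them, and they are chosen by symbol. They are 32 of the 62749 genes in the count tables, and all 32 were among the 22560 genes tested. RNA was sequenced in 14 libraries of tumours grown in mice from UMUC3 cells, a line of human bladder cancer. The control libraries (n = 3) came from cells titled as carrying a control sh, and the FASN knockdown libraries (n = 3) from FASN KD cells, both kept in regular medium. The groups after CSM, 4 control and 4 FASN knockdown libraries, came from the same kinds of cells pre-exposed to 10% cigarette smoke medium (CSM) before engraftment. The labels give no knockdown reagent or number of clones, no exposure time for CSM, and no age or strain of the mice, and they leave unsaid whether each library is a separate animal. The p-values therefore cover only the spread of the libraries at hand, which may be technical. How reads of the mouse host were handled is not stated. Because the tissue is bulk, fewer cells of a type and less RNA per cell cannot be told apart.

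Peroxisomes are membrane-bound organelles that shorten very long chain and branched fatty acids and bile acid precursors, begin the synthesis of ether lipids, and produce and destroy hydrogen peroxide. Their enzymes are made in the cytosol and carried in by the receptors PEX5 and PEX7, which dock at PEX13 and PEX14 and are recycled by a membrane ubiquitin ligase, to which PEX2 and PEX10 belong, and by an ATPase that includes PEX6 and is anchored by PEX26. PEX3, PEX16 and PEX19 place the membrane proteins, and PEX11 proteins shape and divide the organelle. FASN, the enzyme that makes palmitate, supplies fatty acids in the cytosol, whereas these genes act on fatty acids that are degraded or remodelled.

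The promoters of PECR, a peroxisomal enoyl-CoA reductase, and of PEX10, a subunit of the import ligase, are shown. Promoters were sought for members that passed a test described further on (PEX5, PECR and PHYH). They were also sought for members below every control library in each medium by scaled counts (PECR, PEX10, PHYH and EHHADH). The share of all genes that met this second condition was not computed. PEX5 and PHYH are not printed because their windows held more exonic bases (198 and 46, against 7 each for PECR and PEX10). EHHADH had no matched window. RefSeq windows on GRCh38.p14 were matched for 26 of the 32 genes (34 windows), and the stretch of 250 bases before each annotated start was searched on both strands. The PECR window is chr2:216081810-216082059 and the PEX10 window is chr1:2412565-2412814, both on the minus strand, given 5′ to 3′ with motif matches in capitals.
PECR: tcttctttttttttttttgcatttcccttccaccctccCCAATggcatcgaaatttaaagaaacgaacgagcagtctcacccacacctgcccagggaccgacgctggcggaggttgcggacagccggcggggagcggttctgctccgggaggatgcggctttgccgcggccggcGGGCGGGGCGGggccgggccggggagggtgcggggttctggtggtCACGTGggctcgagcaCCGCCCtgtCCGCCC
PEX10: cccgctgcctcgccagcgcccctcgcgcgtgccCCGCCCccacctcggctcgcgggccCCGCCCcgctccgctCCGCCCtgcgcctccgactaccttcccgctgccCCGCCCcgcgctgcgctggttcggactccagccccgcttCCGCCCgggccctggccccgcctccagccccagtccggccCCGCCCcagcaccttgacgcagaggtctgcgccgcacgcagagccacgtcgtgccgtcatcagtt
The PECR capitals mark an E-box (CACGTG) 31 bases before the start, a CCAAT box (CCAAT) 212 bases before it, and 4 GC boxes (GGGCGG or its reverse complement), a pair of which overlap by a single base. The PEX10 capitals mark 6 GC boxes, between 65 and 217 bases before the start. A GC box was found in windows of 20 of the 26 matched genes and in 70.6% of the 34 windows, against 42.6% of all 35116 windows. The median GC content was 62.8% in the members' windows and 58% in all windows. The E-box was found in windows of 4 genes (11.8% of windows, against 6.34% of all), the CCAAT box in 11 (35.3% against 32.01%) and the antioxidant response core TGACNNNGC in 5 (14.7% against 10.9%). The nuclear receptor half-site AGGTCA was found in 1 gene (2.94% of windows, against 12.1% of all). The 13-base direct repeat of that half-site with a spacer of 1 base, the arrangement bound by PPAR and RXR receptors, was found in none of the 26 genes and in 0.0171% of all windows.

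FASN itself was lower in every FASN knockdown library than in every control in regular medium, while those labelled FASN knockdown after CSM reached into the controls' range. It stood at 571, 404 and 379 CPM in control, 121, 99.9 and 132 CPM in FASN knockdown, 456, 479, 423 and 366 CPM in control after CSM and 219.5, 166, 301 and 479 CPM in FASN knockdown after CSM, where CPM are counts brought to a common library total with TMM factors (trimmed mean of M values). Replicate 4 of FASN knockdown after CSM thus lay above 3 of the 4 controls after CSM. The log2 fold change, fitted by edgeR's quasi-likelihood test as all fold changes here unless another scale is named, was -1.94 (SE 0.33, adjusted p = 0.0245) in regular medium. Adjusted p-values are Benjamini-Hochberg values over all tested genes, and a gene was called below 0.05. After CSM it was -0.57 (SE 0.28, adjusted p = 0.288), and FASN knockdown after CSM below names the libraries so labelled. On the deposited TPM (a level per transcript length, scaled to the same sum in every library) the mean of FASN after CSM was 50.4 in controls and 63.2 in FASN knockdown, so its direction there depended on the scale. On the deposited TPM all tested genes had a median log2 difference of 0.39 in the same comparison.

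The libraries held between 15810287 and 45209466 summed counts. The 7SL RNA, part of the signal recognition particle, took 2.64% to 25.6% of the counts and 17.9% to 69.1% of the TPM, and exceeded 15% of the counts in FASN knockdown replicate 2 and control after CSM replicate 3. Of 15 urothelial and epithelial markers 10 passed the filter and 2 were at 0 in all libraries, and their summed level was 202 to 302 CPM in regular medium, 290.0 to 346 CPM in controls after CSM and 183 to 213 CPM in FASN knockdown after CSM. Mesenchymal markers summed to 1389.6 to 2999.7 CPM, endothelial markers to 1.29 to 2.80 CPM, leukocyte markers to 45.5 to 112 CPM, adipocyte markers to 0.144 to 2.15 CPM and muscle markers to at most 0.434 CPM. Fibroblast markers summed to 15.9 to 17.1 CPM in control and 29.99 to 37.7 CPM in FASN knockdown. After CSM they summed to 14.5 to 29.9 CPM in control and 12.4 to 31.6 CPM in FASN knockdown. The sums did not overlap in regular medium, whereas the mean log2 CPM of the 6 tested fibroblast markers did (0.0996 to 0.293 in control, -0.693 to 0.539 in FASN knockdown). Of all these markers, KRT18 (epithelial, -0.59) and PDGFRB (fibroblasts, -1.78) were called lower and CDH2 (mesenchymal, 1.62) higher in knockdown over both media by edgeR (adjusted p = 0.0340, 0.0110 and 0.0158). The part of these markers in the results was not tested.

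Levels per length were compared within libraries on the deposited TPM. HSD17B4, the multifunctional enzyme that hydrates and dehydrogenates very long chain and branched substrates, had the highest mean of the 32 genes (75.1 TPM, SD 40.0, n = 14) and was the highest of them in 12 of 14 libraries. PEX16 (41.0 TPM), PEX5 (34.6 TPM), PEX2 (27.7 TPM), the sterol carrier and thiolase gene SCP2 (27.3 TPM) and AGPS (25.4 TPM), which makes alkyl ether bonds, followed. Neighbours in this order changed places between libraries, and did not differ beyond their spread: PEX16 was above PEX5 in 8 of 14 libraries, and PEX2 above SCP2 in 6 of 14. HSD17B4 stood above PEX16 in 13 of 14. At the other end, PEX11A (1.75 TPM) was above the bifunctional enzyme EHHADH (0.423 TPM) in 14 of 14 libraries, and PEX11G (0.230 TPM) was the lowest member in 12 of 14. The counts behind these levels were at least 113 in every library for 24 of the 32 genes, and fell below 100 in some library for the other 8.

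**Figure D1:**
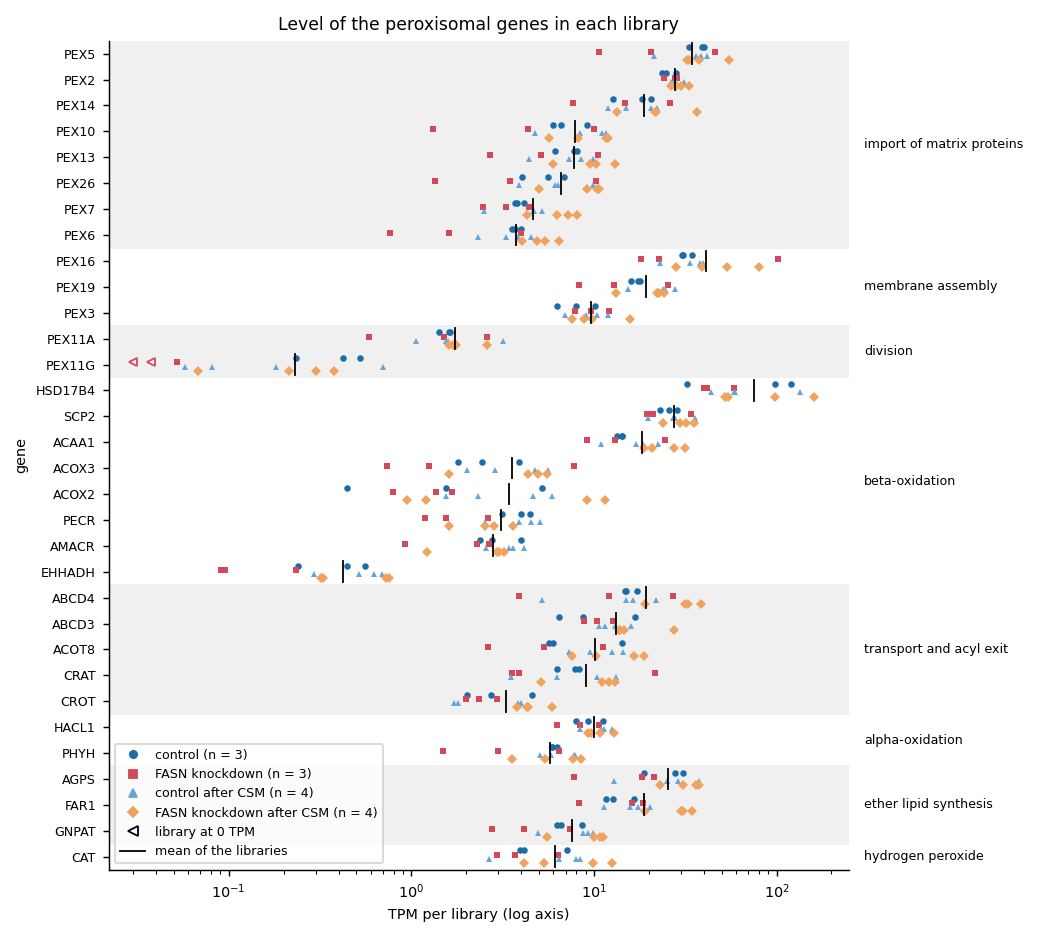
TPM of each of the 32 genes (rows, grouped by role) in each of the 14 libraries, on a log axis, with the mean of the libraries as a black bar and libraries at 0 as open triangles at the left edge. HSD17B4 had the highest mean, at 75.1 TPM, and PEX11G the lowest, at 0.230 TPM, with 2 FASN knockdown libraries at 0.

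Which transcripts carried these levels differed among the genes. At least 80% of the TPM lay on protein-coding transcripts for 15 of the 32 genes, among them PEX5 (94.7%, led by PEX5-201), PHYH (84.6%, led by PHYH-201), AMACR, PEX6 and PEX26 (100% each). Under 50% did for 5 genes. For ACOX2, the oxidase of bile acid precursors, 96.9% lay on ACOX2-207, a retained-intron transcript of 1072 bases, and 0.234% on protein-coding transcripts. For HSD17B4, 65.2% lay on HSD17B4-203, a retained-intron transcript of 589 bases, so most of the TPM behind its first place lay on a short transcript that is not annotated as coding. ABCD4, a transporter of the ABCD family that acts in cobalamin handling, had 9.91% on protein-coding transcripts, PECR 37.3% and PEX11G 42.4%. The counting's use of strand is not given in the sources used here, and 19 of the 32 genes share exonic bases with another gene, 13 of them with one on the opposite strand.

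**Figure D2:**
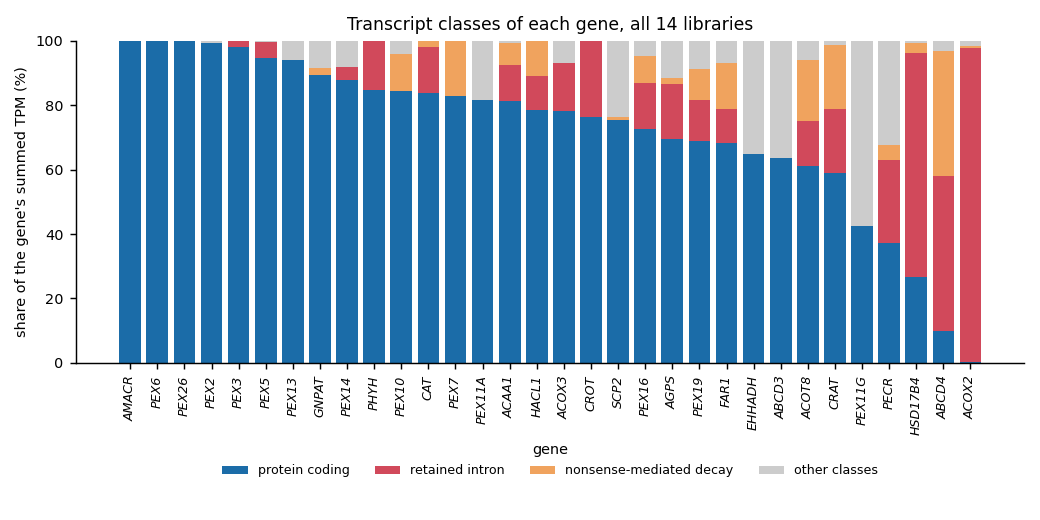
Share of each gene's summed TPM over the 14 libraries that lay on protein-coding, retained-intron, nonsense-mediated decay and other annotated transcripts. ACOX2, ABCD4 and HSD17B4 stand at the right with 0.234%, 9.91% and 26.5% on protein-coding transcripts.

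Knockdown was first compared with control over both media, with the medium held fixed by averaging the effect of each. PEX5, PECR and PHYH fell, and no member rose, which is 3 of 32 called lower at an adjusted p below 0.05, beside 1.98% of all tested genes called lower and 3.52% called in either direction. At an unadjusted p under 0.05, 10 were lower, beside 9.45% of all genes. DESeq2 called 8 members lower (PEX5, PEX6, PEX10, PEX11G, EHHADH, AMACR, PECR and PHYH) beside 905 genes called lower in all. Fitted with limma on log2(TPM + 1) of the deposited TPM, 0 members were called, beside 79 genes in all. The median fold change of the 32 genes was -0.27 and 8 were positive, against a median of 0.00 over all tested genes, of which 50.3% were positive. Without FASN knockdown replicate 3 it was -0.14, against -0.05 over all genes. By the deposited TPM 15 of 32 were positive, with a median of -0.03 against 0.12 over all genes. PECR and PHYH lay below every control library in all FASN knockdown libraries of both media (7 against 7), which held for 1.29% of all tested genes. Without the 2 libraries with over 15% 7SL the fold changes were -0.58 for PEX5, -0.84 for PECR and -0.75 for PHYH, and none passed (edgeR adjusted p = 0.0817, 0.0609 and 0.0605). KRT18 and PDGFRB were lower and CDH2 higher in the same comparison, and their part in the members' change was not tested.

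PEX5 (ENSG00000139197.11, GRCh38 chromosome 12, 7188685 to 7218574, plus strand) encodes the receptor that brings most matrix enzymes into the peroxisome. It stood at 101, 144 and 116 CPM in control, 93.6, 103 and 77.5 CPM in FASN knockdown, 96.4, 120.2, 142 and 124 CPM in control after CSM and 72.3, 90.0, 58.1 and 64.2 CPM in FASN knockdown after CSM. The knockdown libraries overlapped the controls in regular medium, where knockdown replicate 2 exceeded control replicate 1, and lay below all controls after CSM. The mean went from 121 CPM ± 18.9 to 71.2 CPM ± 13.8 after CSM (SD, n = 4 each). Over both media PEX5 fell by 0.58 on the log2 scale (SE 0.15, edgeR adjusted p = 0.0437), and the changes in regular medium (-0.40, adjusted p = 0.641) and after CSM (-0.76, adjusted p = 0.0695) did not pass. The edgeR call was kept without FASN knockdown replicate 2, control after CSM replicate 1 or FASN knockdown after CSM replicate 2, and lost without each of the other 11 libraries, with an adjusted p between 0.0544 and 0.127. On the deposited TPM, on which all genes had a median of 0.39 after CSM, the PEX5 difference after CSM was 0.21 in the opposite direction.

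PHYH (ENSG00000107537.14, GRCh38 chromosome 10, 13277796 to 13302412, minus strand) encodes phytanoyl-CoA hydroxylase, which opens the alpha-oxidation of phytanic acid, a branched fatty acid from the diet. Its level was 11.1, 12.0 and 11.2 CPM in the controls and 7.46, 7.79 and 5.30 CPM in FASN knockdown. After CSM it was 12.5, 12.5, 16.4 and 10.5 CPM in the controls and 5.29, 7.28, 9.34 and 7.91 CPM in FASN knockdown. The highest of the 7 knockdown libraries, replicate 3 after CSM, lay below the lowest of the 7 controls. PHYH fell by 0.77 over both media (SE 0.18, edgeR adjusted p = 0.0283), with similar sizes in regular medium (-0.75, adjusted p = 0.414) and after CSM (-0.80, adjusted p = 0.0978), neither of which passed alone. Its call was lost without any 1 of 8 libraries (all 3 controls, FASN knockdown replicate 3, control after CSM replicates 2 and 3, and FASN knockdown after CSM replicates 1 and 2), with an edgeR adjusted p of 0.0506 to 0.0877. No exonic overlap with another gene was found for PHYH.

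HACL1, the lyase that cleaves the product of PHYH, was the other alpha-oxidation gene. It stood at 18.4, 19.9 and 27.6 CPM in control, 34.5, 41.4 and 12.2 CPM in FASN knockdown, 19.5, 22.3, 39.8 and 26.1 CPM in control after CSM and 13.7, 22.6, 12.6 and 15.7 CPM in FASN knockdown after CSM, with overlap in both media. Its fold change was 0.42 in regular medium (edgeR adjusted p = 0.850) and -0.74 after CSM (edgeR adjusted p = 0.255).

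PECR (ENSG00000115425.14, GRCh38 chromosome 2, 215996329 to 216082955, minus strand) encodes the reductase whose promoter is shown above. It stood at 5.56, 6.08 and 4.87 CPM in control, 3.54, 3.39 and 2.39 CPM in FASN knockdown, 5.38, 4.87, 7.26 and 5.53 CPM in control after CSM and 2.28, 3.56, 2.97 and 3.29 CPM in FASN knockdown after CSM. All 7 knockdown libraries lay below all 7 controls. PECR fell by 0.88 over both media (SE 0.20, edgeR adjusted p = 0.0273), with -0.83 in regular medium (adjusted p = 0.417) and -0.93 after CSM (adjusted p = 0.0882). Its call was lost without any 1 of 7 libraries (all 3 controls, control after CSM replicates 3 and 4, and FASN knockdown after CSM replicates 1 and 3), with an edgeR adjusted p of 0.0505 to 0.0898. The exons of PECR share 137 bases with MREG on the same strand, so its value is uncertain to that extent.

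The PECR transcripts that carried the reads differed between libraries. With a mean of 3.11 TPM over 8 listed transcripts, its shares in single libraries rest on low levels. Retained-intron transcripts held 40.7%, 54.9% and 39.4% of its TPM in the 3 controls and 0% in all 3 FASN knockdown libraries. The share of all genes with such a split was not computed. After CSM they held 7.69%, 62.7%, 39.4% and 19.8% in the controls and 0%, 0%, 6.48% and 14.2% in FASN knockdown, where the groups overlapped. Protein-coding transcripts took 22.3%, 37.8% and 34.9% of the TPM in the controls and 50.6%, 0% and 40.8% in FASN knockdown. Counted over protein-coding transcripts alone, the PECR fold change was -0.68 over both media (edgeR adjusted p = 0.547). None of the 30 members tested in this way was called, beside 384 genes in all. PHYH was at -0.64 (adjusted p = 0.0579) and PEX5 at -0.43 (adjusted p = 0.110) in that edgeR fit.

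**Figure D3:**
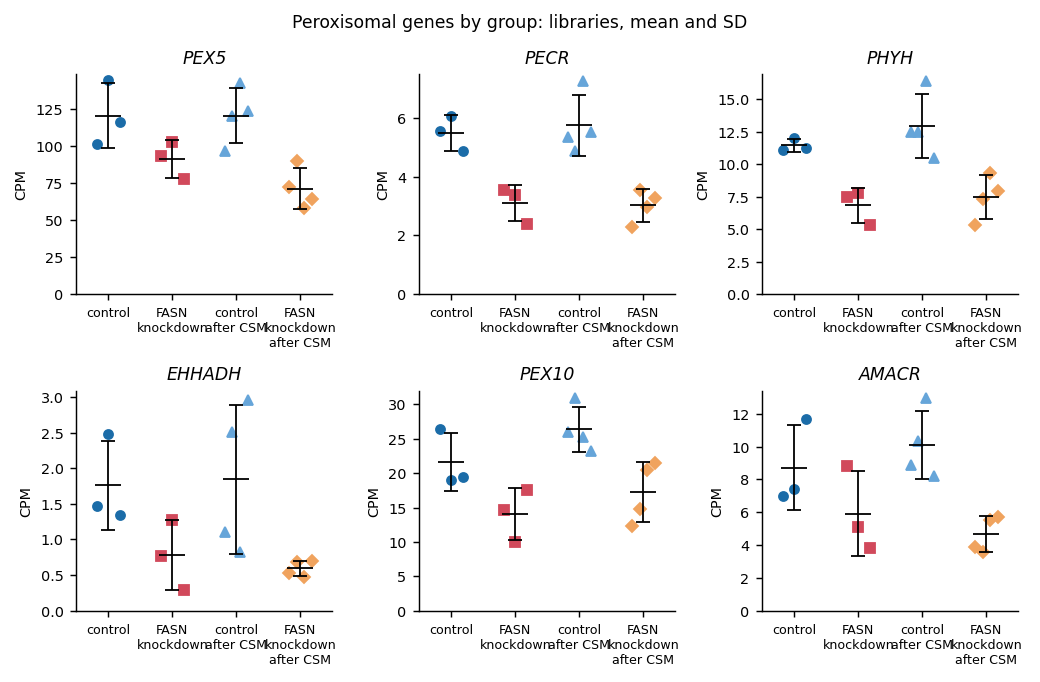
CPM of PEX5, PECR, PHYH, EHHADH, PEX10 and AMACR in each library by group, with the mean and SD (n = 3, 3, 4 and 4). All 7 PECR and all 7 PHYH knockdown libraries sit below all controls, and the PEX5 and AMACR groups overlap in regular medium.

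In regular medium alone, 0 of 32 members were called for knockdown against control by edgeR, beside 0.204% of all tested genes, and 5 were lower at an unadjusted p under 0.05, beside 4.78% of all genes (DESeq2 called 0 as well). The median fold change was -0.03 and 15 were positive, near the median of 0.02 over all genes. It was -0.19 with 11 positive without the 2 libraries over 15% 7SL (0.01 over all genes) and -0.17 with 11 positive without FASN knockdown replicate 2 alone. On the deposited TPM 6 were positive with a median of -0.29, against -0.14 over all genes. EHHADH, PECR, PEX10, PEX11G, PEX6 and PHYH lay below every control, 6 of 32 (18.8%), beside 7.04% of all tested genes below and 4.8% above, and on the deposited TPM 3 did (EHHADH, PECR and PEX11G), beside 7.54% of all genes. No member lay above every control, whereas without FASN knockdown replicate 3 9 lay below, beside 17.7% of all genes, and 8 above, beside 13.8%. The summed fibroblast markers, at 29.99 to 37.7 CPM in FASN knockdown and 15.9 to 17.1 CPM in control, were apart in the same libraries. Singly, 3 of the 6 tested fibroblast markers had positive and 3 negative fold changes (median -0.11). Of these markers 1 lay above and 2 below every control, and their part was not tested.

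The import genes spread in both directions. PEX6, part of the ATPase that recycles the receptors, stood at 17.2, 17.1 and 19.7 CPM in control and 10.2, 9.57 and 10.7 CPM in FASN knockdown, a gap wider than the spread within either group. Its fold change was -0.83 (SE 0.24, edgeR adjusted p = 0.255), and it did not pass. After CSM its controls stood at 12.7, 15.7, 21.8 and 20.3 CPM and enclosed the knockdown libraries at 14.8, 19.2, 13.4 and 14.96 CPM.

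PEX10 (GRCh38 chromosome 1, 2403964 to 2413797, minus strand), the ligase subunit whose promoter is shown above, was at 26.4, 19.0 and 19.4 CPM in control, 14.7, 10.00 and 17.6 CPM in FASN knockdown, 26.0, 31.0, 25.3 and 23.2 CPM in control after CSM and 12.4, 14.8, 20.4 and 21.4 CPM in FASN knockdown after CSM. It lay below all controls in each medium, with a fold change of -0.61 in both (edgeR adjusted p = 0.504 in regular medium and 0.178 after CSM). Its exons share 1481 bases with RER1 on the opposite strand, so reads of the 2 genes may not be told apart. PEX2, its partner in the ligase, was at 34.0, 45.7 and 42.1 CPM in control, 59.9, 83.0 and 28.2 CPM in FASN knockdown, 38.2, 33.8, 82.6 and 42.9 CPM in control after CSM and 27.4, 44.2, 28.1 and 26.0 CPM in FASN knockdown after CSM, with overlap in both media. PEX7, the receptor for a small set of enzymes including PHYH and AGPS, was at 6.31, 6.96 and 6.68 CPM in control, 8.16, 12.8 and 5.24 CPM in FASN knockdown, 6.71, 6.60, 7.80 and 7.94 CPM in control after CSM and 7.66, 9.16, 6.62 and 6.67 CPM in FASN knockdown after CSM. Its fold change was 0.22 over both media, the largest positive one of the 32 (edgeR adjusted p = 0.579).

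PEX26, the membrane anchor of that ATPase, was at 79.2, 71.2 and 76.3 CPM in control, 63.1, 59.0 and 112 CPM in FASN knockdown, 79.4, 89.3, 66.4 and 74.4 CPM in control after CSM and 75.1, 75.6, 81.2 and 86.3 CPM in FASN knockdown after CSM, with overlap in both media and a fold change of 0.04 after CSM (edgeR adjusted p = 0.929). PEX14, part of the docking complex, ranged from 28.7 to 62.1 CPM over the 14 libraries and its groups overlapped in both media.

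PEX11G, a member of the family that shapes peroxisomes before division, was close to the limit of detection. Its counts were 21, 9 and 21 in control, 0, 0 and 1 in FASN knockdown, 4, 22, 7 and 10 in control after CSM and 6, 2, 6 and 19 in FASN knockdown after CSM. Pooled over libraries, control held 51 counts and FASN knockdown 1, a ratio of knockdown to control of 0.0308 per summed count with an exact 95% interval of 0.000766 to 0.180, which covers counting error only. After CSM the pooled counts were 33 in FASN knockdown and 43 in control, a ratio of knockdown to control of 0.922 with an interval of 0.568 to 1.49. By edgeR the log2 fold change of PEX11G was -4.73 in regular medium (SE 1.24, adjusted p = 0.194) and -0.54 after CSM. For CSM against regular medium in FASN knockdown cells it was 3.67 (SE 1.21, edgeR adjusted p = 0.671).

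EHHADH (GRCh38 chromosome 3, 185190624 to 185281990, minus strand), an enzyme of the peroxisomal pathway that also oxidises dicarboxylic acids, was low as well, with 65, 88 and 51 counts in control and 22, 15 and 10 in FASN knockdown. Its level was 1.47, 2.48 and 1.34 CPM in control, 0.771, 1.27 and 0.291 CPM in FASN knockdown, 1.10, 2.51, 0.822 and 2.96 CPM in control after CSM and 0.532, 0.684, 0.477 and 0.691 CPM in FASN knockdown after CSM. The knockdown libraries lay below all controls in each medium, with a log2 fold change of -1.23 in regular medium (edgeR adjusted p = 0.573) and -1.63 after CSM (edgeR adjusted p = 0.120). By the deposited TPM the difference after CSM was -0.01, and knockdown replicates 2, 3 and 4 and control replicate 3 after CSM carried most of the gene's TPM on transcripts without a defined coding sequence (70.5%, 84.7%, 73.2% and 84.7%). Without the 2 libraries over 15% 7SL, EHHADH was the 1 member called over both media, beside 281 genes called lower in all.

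The members with the smallest p in the upward direction in regular medium were PEX3, PEX16 and ACAA1. PEX3, the membrane receptor that docks PEX19, stood at 15.4, 16.8 and 20.4 CPM in control and 22.7, 33.5 and 17.3 CPM in FASN knockdown (0.48, edgeR adjusted p = 0.600). PEX16, which recruits PEX3, stood at 37.6, 42.5 and 47.7 CPM in control and 42.1, 56.8 and 67.7 CPM in FASN knockdown (0.38, edgeR adjusted p = 0.725). ACAA1, the peroxisomal thiolase, stood at 27.0, 24.7 and 25.3 CPM in control and 30.6, 39.6 and 25.6 CPM in FASN knockdown (0.31, edgeR adjusted p = 0.745). The highest knockdown value of PEX3 and ACAA1 was that of replicate 2, 1 of the 2 libraries with over 15% 7SL, and that of PEX16 was replicate 3.

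After CSM, the libraries labelled FASN knockdown had lower CPM than the controls for most of the list, although no single gene passed. The count called by edgeR was 0 of 32, beside 1.17% of all tested genes, with 10 of 32 lower at an unadjusted p under 0.05, beside 9.33% of all genes. DESeq2 called 6 members lower (PEX5, PEX19, EHHADH, AMACR, PECR and PHYH) beside 704 genes called lower in all. On the CPM scale 28 of 32 fold changes were negative with a median of -0.47, against a median of 0.01 over all genes, whereas on the deposited TPM 26 of 32 were positive with a median of 0.21, against 0.39 over all genes. On TPM scaled by TMM, 29 of 32 were negative with a median of -0.32. AMACR, EHHADH, PECR, PEX10, PEX11A, PEX13, PEX19, PEX3, PEX5 and PHYH lay below every control, 10 of 32 (31.2%) on the CPM scale, beside 7.34% of all tested genes below and 8.86% above, and no member lay above. On the deposited TPM no member lay below or above every control, beside 0.603% of all genes below and 13.7% above, PEX5, PEX10, PEX13, PEX3 and PEX11A had the opposite sign, and PECR, PHYH, AMACR, PEX19 and EHHADH the same sign. In the same libraries the urothelial and epithelial markers summed to 183 to 213 CPM in FASN knockdown and 290.0 to 346 CPM in controls. Singly, 6 of the 10 tested markers had negative and 4 positive fold changes, and 2 lay below every control. Their mean log2 CPM overlapped (0.920 to 1.81 in FASN knockdown, 1.62 to 2.28 in controls). The part of these markers in the result was not tested. On the TMM-scaled TPM 8 members lay below every control, beside 6.01% of all genes, and ABCD4 above, beside 8.16%. On the CPM scale EHHADH, PECR, PEX10 and PHYH lay below every control in both media, 4 of the 6 genes in regular medium and 4 of the 10 after CSM. The share of all tested genes below in both media was not computed. On the TMM-scaled TPM EHHADH overlapped the controls in both media.

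By role, all 8 genes listed under beta-oxidation, the reductase PECR among them, had negative fold changes after CSM on the CPM scale. So did all 3 membrane assembly genes, both division genes and both alpha-oxidation genes. The medians were -0.49, -0.45, -0.77 and -0.77 in that order. The import genes had 6 of 8 negative (median -0.42), transport and acyl exit 4 of 5 (median -0.30) and ether lipid synthesis 2 of 3 (median -0.31). In deposited TPM 22 of the 32 signs after CSM were the opposite, and on the TMM-scaled TPM 3 were. The beta-oxidation genes not named so far were at -0.01 (ACOX2), -0.37 (HSD17B4) and -0.47 (SCP2) after CSM, with adjusted p-values of 0.996, 0.586 and 0.298 by edgeR.

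**Figure D4:**
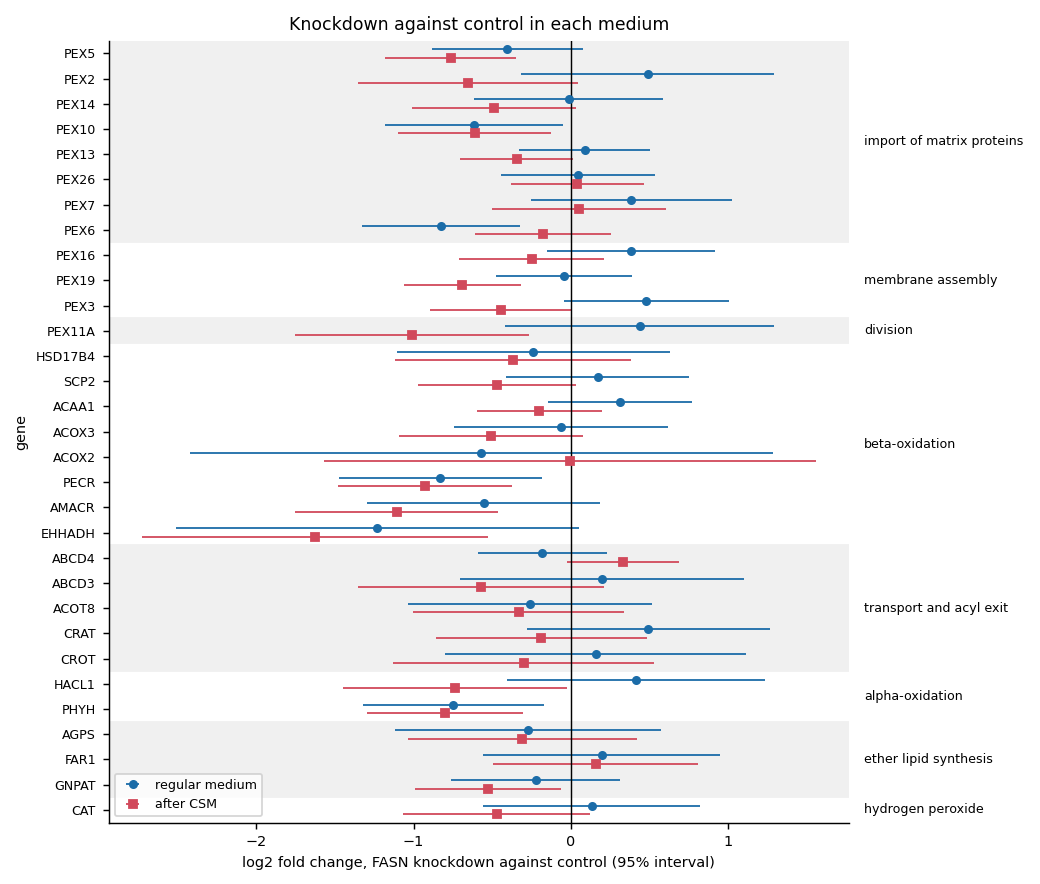
Log2 fold change of knockdown against control, with its 95% interval, for 31 of the 32 genes in regular medium (blue circles) and after CSM (red squares), on edgeR's scale of counts with TMM factors. PEX11G is left out because FASN knockdown held 1 count. The red squares lie at or left of the blue circles for most genes, and on the deposited TPM 22 of the 32 genes have the opposite sign after CSM.

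PEX19, the chaperone that delivers newly made membrane proteins to PEX3, had the smallest p of the list after CSM. It stood at 46.2, 42.8 and 42.3 CPM in control, 36.1, 52.2 and 39.4 CPM in FASN knockdown, 50.1, 50.8, 58.5 and 43.1 CPM in control after CSM and 25.9, 29.5, 34.5 and 35.7 CPM in FASN knockdown after CSM. Knockdown after CSM lay below every other group's libraries, with a fold change of -0.69 (SE 0.18, edgeR adjusted p = 0.0688). In regular medium the knockdown libraries fell on both sides of the controls (-0.04, adjusted p = 0.985 by edgeR). The exons of PEX19 share 729 bases with the gene AL139011.2 on the same strand, so its value is uncertain to that extent. With limma on TMM-scaled log2(TPM + 1), PEX19 and PECR passed after CSM (adjusted p = 0.0406 and 0.0450), beside 86 genes called lower in all.

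AMACR (GRCh38 chromosome 5, 33986178 to 34008108, minus strand), the racemase that turns branched substrates into the form the oxidases accept, stood at 6.98, 7.44 and 11.7 CPM in control, 8.83, 5.08 and 3.84 CPM in FASN knockdown, 8.90, 10.3, 12.9 and 8.20 CPM in control after CSM and 3.90, 3.56, 5.50 and 5.73 CPM in FASN knockdown after CSM. The 4 knockdown libraries after CSM lay below the 4 controls, and in regular medium knockdown replicate 1 lay within the controls. The fold change was -1.11 after CSM (SE 0.30, edgeR adjusted p = 0.0817) and -0.55 in regular medium (edgeR adjusted p = 0.707). Its exons share 2660 bases with the readthrough gene C1QTNF3-AMACR on the same strand, so the value of AMACR is uncertain to that extent.

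PEX13, a docking protein for loaded receptors, varied little within the knockdown libraries after CSM. It stood at 36.8, 32.6, 40.3 and 30.3 CPM in controls after CSM and 26.3, 28.2, 27.9 and 27.9 CPM in FASN knockdown after CSM (-0.34, edgeR adjusted p = 0.289). In regular medium the values were 25.6, 34.9 and 38.4 CPM in control and 33.7, 38.5 and 33.0 CPM in FASN knockdown, with overlap. PEX3 after CSM stood at 19.6, 19.8, 25.8 and 17.5 CPM in controls and 16.5, 15.6, 14.2 and 14.4 CPM in FASN knockdown (-0.45, edgeR adjusted p = 0.277), the opposite sign to regular medium. PEX11A, a PPAR-responsive division factor in other tissues, stood at 4.23, 3.80 and 4.84 CPM in control, 2.77, 10.3 and 4.51 CPM in FASN knockdown, 5.20, 4.26, 6.15 and 5.03 CPM in control after CSM and 2.13, 3.32, 2.41 and 2.40 CPM in FASN knockdown after CSM. Its fold change was -1.01 after CSM (edgeR adjusted p = 0.152), and FASN knockdown replicate 2 was its highest library.

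ABCD4, FAR1 and PEX26 had the smallest p on the positive side after CSM. ABCD4 stood at 31.8, 31.5 and 32.1 CPM in control, 27.6, 24.8 and 31.7 CPM in FASN knockdown, 36.7, 31.0, 23.6 and 30.2 CPM in control after CSM and 40.7, 40.8, 35.7 and 36.1 CPM in FASN knockdown after CSM, and the groups after CSM overlapped (0.33, edgeR adjusted p = 0.298). Over its protein-coding transcripts alone the fold change was -0.73. FAR1, the reductase that supplies fatty alcohols for ether lipids, stood at 37.3, 61.0 and 70.2 CPM in control, 83.9, 79.97 and 29.2 CPM in FASN knockdown, 44.5, 46.2, 76.3 and 67.3 CPM in control after CSM and 68.9, 79.9, 54.8 and 58.1 CPM in FASN knockdown after CSM, with a fold change of 0.16 after CSM and 0.18 over both media (edgeR adjusted p = 0.801 and 0.717). Of the other ether lipid genes, GNPAT, which adds the first acyl chain, was at -0.53 after CSM (edgeR adjusted p = 0.217) and AGPS at -0.31 (edgeR adjusted p = 0.643).

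Among the transport and exit genes no group separated under knockdown in either medium on the CPM scale. On the TMM-scaled TPM ABCD4 lay above every control after CSM, as given above. ABCD3, which carries branched and long dicarboxylic acyl groups into the organelle, stood at 23.9, 26.6 and 32.6 CPM in control, 37.7, 44.6 and 13.3 CPM in FASN knockdown, 20.8, 31.7, 69.8 and 35.6 CPM in control after CSM and 24.2, 35.8, 21.9 and 24.3 CPM in FASN knockdown after CSM, and control after CSM replicate 3 was its highest library. CRAT, which makes acetylcarnitine for export, stood at 28.4, 20.1 and 21.3 CPM in control, 17.6, 27.2 and 53.2 CPM in FASN knockdown, 41.1, 31.8, 22.2 and 19.7 CPM in control after CSM and 23.8, 18.3, 29.04 and 29.7 CPM in FASN knockdown after CSM, with FASN knockdown replicate 3 highest. CROT, which does the same for medium chains, stood at 7.23, 11.3 and 14.9 CPM in control, 13.2, 18.9 and 5.44 CPM in FASN knockdown, 6.33, 10.7, 13.0 and 11.6 CPM in control after CSM and 7.89, 13.7, 4.85 and 7.34 CPM in FASN knockdown after CSM. ACOT8, a thioesterase that frees acyl groups, was at -0.26 in regular medium and -0.33 after CSM (edgeR adjusted p = 0.923 and 0.579). CAT, the catalase that removes hydrogen peroxide, was at 18.1, 21.6, 14.97 and 17.6 CPM in controls after CSM and 7.36, 11.6, 17.6 and 15.5 CPM in FASN knockdown after CSM, where replicates 3 and 4 reached the controls' range (-0.47, edgeR adjusted p = 0.370).

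The mean log2 CPM of the 32 genes was 4.12, 4.16 and 4.18 in control, 4.01, 4.24 and 3.63 in FASN knockdown, 4.15, 4.34, 4.53 and 4.28 in control after CSM, and 3.70, 3.93, 3.86 and 3.96 in FASN knockdown after CSM. The groups did not overlap after CSM and did in regular medium. The library with the highest mean, control after CSM replicate 3, and the highest FASN knockdown library, replicate 2, were the 2 with over 15% 7SL. For 9 of the 32 genes (28.1%) these were the 2 highest libraries of all 14, against 6.45% of all tested genes. The 9 were PEX3, ACAA1, SCP2, ABCD3, HACL1, PEX19, PEX13, PEX2 and PEX11A. Without those 2 libraries the median after CSM went from -0.47 to -0.29 with 29 of 32 negative, and 11 genes lay below every control, the same 10 and CAT, beside 9.11% of all genes below and 10.3% above. Without FASN knockdown after CSM replicate 4, the library with a control level of FASN, the median was -0.50 and the same 10 genes lay below every control, beside 9.66% of all genes below and 11.6% above.

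**Figure D5:**
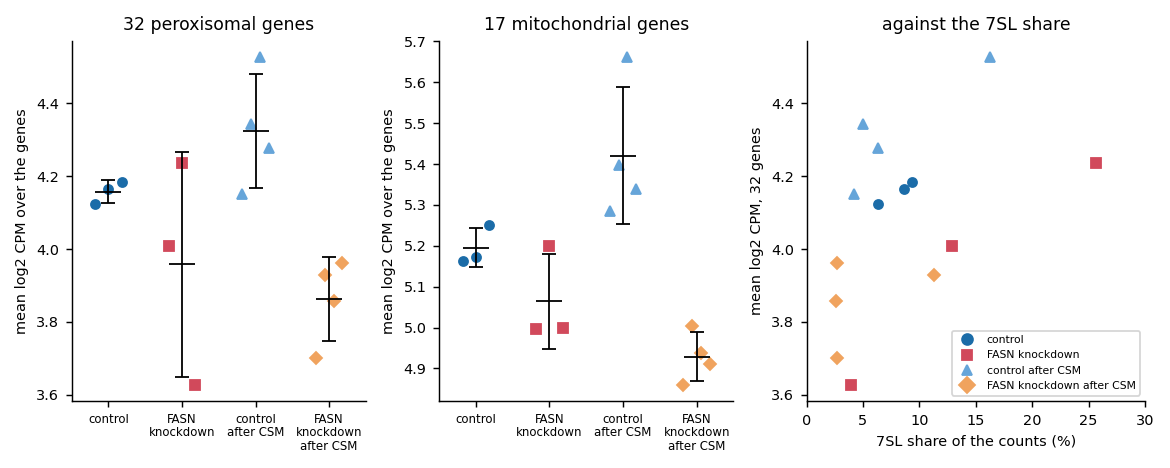
Mean log2 CPM over the 32 peroxisomal genes and over 17 mitochondrial beta-oxidation genes in each library by group, with the mean and SD of the group, and the first of these against the 7SL share of the counts. FASN knockdown after CSM, at 3.70 to 3.96, lies below control after CSM, at 4.15 to 4.53, and the library with the highest mean has 16.3% 7SL.

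CSM against regular medium called 0 of 32 members in control cells and 0 of 32 in FASN knockdown cells by edgeR, beside 0% of all tested genes in each, and DESeq2 also called no member. At an unadjusted p under 0.05 there were 0 members and 1.4% of all genes (316 genes) in control cells, and 8 members and 6.67% of all genes (1504 genes) in FASN knockdown cells. In control cells 28 of 32 fold changes were positive with a median of 0.18, against 0.01 over all genes, and the median went to 0.05 with 21 positive without control after CSM replicate 3. On the deposited TPM 24 were positive, with a median of 0.11 against -0.01 over all genes. No member's groups were apart in control cells on the CPM scale, beside 1.91% of all genes higher and 2.16% lower without overlap, while on the TMM-scaled TPM PEX19 and ACAA1 lay above every control, beside 1.76% of all genes. The smallest p among them was that of ACAA1, at 27.0, 24.7 and 25.3 CPM in control and 30.6, 35.8, 39.1 and 25.9 CPM in control after CSM (0.36, edgeR adjusted p = 1.000). ACOX3, the oxidase for branched chains, was next, at 9.90, 6.65 and 7.58 CPM in control and 10.2, 15.2, 10.9 and 7.44 CPM in control after CSM (0.45), with overlap. ABCD3 was at 0.51 and, on the negative side, ABCD4 at -0.07 and CROT at -0.10 (edgeR adjusted p = 1.000 for each).

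In FASN knockdown cells 23 of 32 fold changes were negative after CSM, with a median of -0.23 against -0.02 over all genes. The median was 0.03 without the libraries over 15% 7SL and 0.00 without FASN knockdown replicate 2 alone. On the deposited TPM 32 of 32 were positive, with a median of 0.69 against 0.59 over all genes. PEX13, PEX19 and PEX3 lay below the regular-medium libraries, 3 of 32 (9.38%) beside 1.49% of all genes, and ABCD4, PEX6 and PEX11G lay above, 3 of 32 beside 4.42% of all genes. PEX6 went from 10.2, 9.57 and 10.7 CPM to 14.8, 19.2, 13.4 and 14.96 CPM (0.62, edgeR adjusted p = 0.685), back into the range of the control groups. PEX3 went from 22.7, 33.5 and 17.3 CPM to 16.5, 15.6, 14.2 and 14.4 CPM (-0.69, edgeR adjusted p = 0.671). PEX11A (-1.18, edgeR adjusted p = 0.638) and PEX2 (-0.86, edgeR adjusted p = 0.725) were lower with overlap. None of these genes passed. Without FASN knockdown replicate 3, which had the lowest mean log2 CPM of the list, 11 members lay below and 4 above, beside 14.8% and 16.9% of all genes.

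Whether the knockdown effect differed between media was tested by the interaction, and 0 of 32 members were called by edgeR, beside 0% of all tested genes. At an unadjusted p under 0.05 there were 6 members and 5.22% of all genes (1178 genes), and DESeq2 called no member. The median interaction was -0.41 over the members and -0.03 over all genes, with 27 of 32 negative, and it went to -0.15 with 19 of 32 negative without the libraries over 15% 7SL. In deposited TPM 30 of 32 were positive, with a median of 0.49 against 0.57 over all genes. The largest negative value was that of PEX11A (-1.45, SE 0.53, edgeR adjusted p = 0.942), followed by HACL1 (-1.15) and PEX2 (-1.14), whose 2 highest libraries were those 2. PEX3 was at -0.92 and PEX19 at -0.65. On the positive side PEX11G was at 4.19 (SE 1.46, edgeR adjusted p = 0.942), with only 1 count pooled over FASN knockdown. PEX6 was at 0.65 and ABCD4 at 0.52 (edgeR adjusted p = 0.942 and 0.945). The interaction was -0.05 for PHYH, -0.10 for PECR and 0.00 for PEX10, with 95% intervals of -0.81 to 0.70 for PHYH and -0.94 to 0.75 for PECR.

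Other genes of the organelle and of fatty acid oxidation were read from lists that share no gene with the 32. Of 35 other peroxisomal genes, 29 were tested and 1 was called over both media, PEX5L, a relative of PEX5, which was lower at 0.723, 1.41 and 0.921 CPM in control, 0.245, 0.0847 and 0.320 CPM in FASN knockdown, 0.636, 1.44, 0.567 and 1.66 CPM in control after CSM and 0.325, 0.0684, 0.309 and 0.407 CPM in FASN knockdown after CSM (-2.02, SE 0.47, edgeR adjusted p = 0.0291). FAR2, the second fatty acyl reductase, did not pass (-0.60, edgeR adjusted p = 0.0606). After CSM 0 of 29 were called and the median was -0.30 with 21 negative, against -0.47 in the 32 genes, and on the deposited TPM 26 of 29 were positive. Of 11 genes that divide or turn over peroxisomes together with other organelles, GDAP1 was higher after CSM, at 46.5, 41.8, 41.6 and 40.1 CPM in controls and 108, 79.1, 65.9 and 67.2 CPM in FASN knockdown (0.91, edgeR adjusted p = 0.0410). Of 4 tested genes that complete ether lipids in the endoplasmic reticulum, none was called in any comparison, and the smallest p after CSM was that of CHPT1 (-0.43, edgeR adjusted p = 0.323).

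Of 17 genes of mitochondrial beta-oxidation and its carnitine shuttle, 2 were called lower after CSM, CPT1A (-1.25, edgeR adjusted p = 0.00323) and the thiolase ACAA2 (-1.24, edgeR adjusted p = 0.0239). The median was -0.43 with 15 of 17 negative on the CPM scale, close to the 32 peroxisomal genes, while 12 of 17 were positive on the deposited TPM, and 8 of 17 lay below every control after CSM, against 1 of 17 in regular medium. In both lists the mean log2 CPM of FASN knockdown after CSM lay below that of every control after CSM (4.86 to 5.00 against 5.28 to 5.66 for the mitochondrial list). Of 7 tested genes for PPAR and RXR receptors and their coactivators, PPARGC1A was called lower after CSM (edgeR adjusted p = 0.00751), with 46.4, 3.95, 2.21 and 8.42 CPM in controls and 0.148, 0.103, 0.168 and 0 CPM in FASN knockdown. The other 6 were not called in any comparison.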

How the data were processed

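RNA of 14 xenograft libraries was measured by sequencing. Per the submitters' processing notes FastQC, cutadapt and Salmon were used with GRCh38. Their versions, settings and use of strand are not stated there. The deposited tables give, for each of 252048 transcripts, the authors' estimated counts and TPM as Salmon wrote them. Both were summed per gene identifier and the estimated counts rounded, giving 62749 genes and 15810287 to 45209466 counts per library. Genes were kept by filterByExpr (minimum count 10, total 15), which left 22560. edgeR 4.0.16 in R 4.3.3 fitted one quasi-likelihood model to the 4 groups with TMM factors. Differences of TPM were taken on log2(TPM + 1) with limma 3.58.1, which understates the change of low genes, and on TPM scaled by TMM. DESeq2 1.42.0, other factors, no filter, a replicate block, protein-coding transcripts alone and leaving out each library were alternatives. Counting intervals are exact at 95%. Transcript classes are those written in the deposited transcript names, gene coordinates and exon overlaps follow GENCODE 29 on GRCh38, matched on gene identifiers without version, and promoters follow RefSeq on GRCh38.p14. The members and lists were chosen with earlier results of these data known. Values are given for every library of the groups compared for each member called and the 3 with the smallest p in each direction of each comparison, and also for EHHADH, PEX10, PEX13, HACL1 and CAT, chosen after their values were seen. Protein-coding transcripts alone and TMM-scaled TPM were added after the data were seen.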

Additional observations from a re-analysis of the deposited data

Results flagged for a closer look

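In groups of 4 libraries, the gap of the highest or the lowest library to its nearest neighbour was set against the range of the group. Of 66 groups examined, those of the CPM of the 32 members and FASN, 2 had a library far from the other 3, and chance gives about 1 in 20 groups. PEX2, a subunit of the import ligase, stood at 44.2 CPM in FASN knockdown after CSM replicate 2 and between 26.0 and 28.1 CPM in the other 3 libraries of the group. PEX13, the docking protein, stood at 26.3 CPM in FASN knockdown after CSM replicate 1 and between 27.9 and 28.2 CPM in the other 3, a small gap in a group with little spread.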

How the results depend on the processing

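Of 1019 recomputed values, 216 were counts of called genes, of which 152 stayed within 1.5 times. Of the others, 688 fold changes of single members kept their direction and side of the threshold, 42 of PEX5, PECR and PHYH lost their call over both media, 7 became calls after CSM (DESeq2 or TMM-scaled TPM), and 34 fold changes of 11 members reversed. Between TPM and CPM 18 level ranks moved by less than their spread over libraries and 14 by more. The cause of these changes was not tested. Members called after CSM (0) were 6 by DESeq2 and 2 by limma on TMM-scaled TPM. Members called over both media (3) were 8 by DESeq2, 2 without a filter on low counts, 1 on TMM-scaled TPM and 1 without the libraries over 15% 7SL. They were 0 with a replicate block, on the deposited TPM or over protein-coding transcripts alone, and 0 to 4 without 1 library. The 2 without a filter were AMACR and PHYH, so PEX5 and PECR lost their calls there.

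The replicate block gave adjusted p-values of 0.106 for PEX5, 0.0977 for PECR and 0.0989 for PHYH by edgeR. Deviations of same-numbered libraries correlated between -0.384 and 0.328 (median -0.105, 19 pairs), so the numbers were not taken as pairs.

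All genes called in regular medium (46) were 389 without a filter, 17 with a replicate block, 25 from the groups of the contrast alone, 346 by DESeq2, 17 on TPM, 29 over protein-coding transcripts, 18 without the libraries over 15% 7SL, and 11 to 35 without 1 library. After CSM (264) they were, in that order, 1178, 59, 435, 1452, 59, 99, 133 and 86 to 175, and 148 on TMM-scaled TPM. Over both media (795) they were 1575 without a filter, 254 with a replicate block, 2016 by DESeq2, 79 on TPM, 384 over protein-coding transcripts, 376 on TMM-scaled TPM, 429 without the libraries over 15% 7SL, and 255 to 1138 without 1 library. For CSM in control cells, CSM in knockdown cells and the interaction (0 each) they were 62, 175 and 121 without a filter and 6, 52 and 7 by DESeq2.

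Reversed fold changes were as follows. On the deposited TPM, PEX5 was at 0.21 after CSM, PEX11A, PEX3 and PEX2 were at 0.25, 0.0427 and 0.13 for CSM in knockdown cells, and the interactions of PEX5, PECR, PHYH, PEX11A and PEX19 were 0.95, 0.37, 0.63, 0.14 and 0.12. Over protein-coding transcripts ABCD4 was at -0.73 after CSM, 0.32 and -0.79 for CSM in control and knockdown cells and -1.11 in the interaction, where PECR was at 0.58 and PHYH at 0.0904. On TMM-scaled TPM PEX26 was at -0.22 after CSM and CRAT at -0.0554 over both media. Without the libraries over 15% 7SL, PEX26 was at -0.0198 after CSM, ABCD4 at 0.036 for CSM in control cells, and the interactions of PECR and PHYH were 0.10 and 0.18. Without 1 library at a time, PEX26 after CSM ranged from -0.0166 to 0.14, CRAT over both media from -0.13 to 0.30, ABCD4 and CROT for CSM in control cells from -0.18 to 0.027 and from -0.32 to 0.16, and the interactions of PECR and PHYH from -0.21 to 0.0399 and from -0.16 to 0.10. Depth limits PEX11G and EHHADH most, with 0 to 22 and 10 to 123 counts per library.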
